A study of Mus musculus with 6 samples.

Results

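Glutamate uptake and glutamine recycling were followed in the retina through 9 genes, which were chosen by name and found by symbol among the 55421 genes of the count table. They are 4 excitatory amino acid transporters (*Slc1a1*, *Slc1a2*, *Slc1a3* and *Slc1a7*), the neutral amino acid exchanger *Slc1a4*, the enzymes *Glul* and *Glud1*, and the glutamine transporters *Slc38a3* and *Slc38a1*. All 9 were among the 16575 genes with enough reads to be tested. RNA-seq was performed on 3 control retinas (Yapfl/fl, animals YR612, YR613 and YR615) and on 3 *Yap* cKO retinas (Yapfl/fl;RaxCreERT2, animals YR711, YR713 and YR714), all taken at 2 months of age. Both groups carried the floxed alleles and both received 4OH-T, the inducer of the Cre recombinase, at P10 and P14, so the groups differ in the Cre transgene and in what it deletes. In the postnatal eye this Cre is active in Müller glia and in the non-pigmented epithelium of the ciliary body, whereas the RNA came from whole retina, in which Müller glia are a minority. The paper's methods describe the retinas of each group as independent biological replicates.

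Glutamate is the transmitter of photoreceptors, bipolar cells and ganglion cells. Müller glia, the main macroglial cell of the retina, take most of it up from the extracellular space, and glutamine synthetase, found in the retina almost only in these cells, turns it into glutamine. Glutamine leaves the glia through system N carriers, is taken up by neurons and is converted back to glutamate before it is loaded into vesicles. In bulk RNA, fewer cells of a type and less RNA per cell cannot be told apart.

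Total counts per retina ranged from 24261799 to 35067068, which left between 433 and 1325 counts for *Slc1a4*, the least covered of the 9 genes, and between 65929 and 87642 for *Glul*, the most covered. As a check of the genotype, *Yap1* stood at 9.48, 9.52 and 9.83 TPM (counts divided by exonic length and scaled to the same total in each retina) in the controls and at 3.99, 3.76 and 3.94 TPM after deletion, with a log2 fold change of -1.36 ± 0.09 (SE, edgeR quasi-likelihood test, adjusted p = 0.000282) and of -1.49 with the correction for gene length described next. Relative expression varied with gene length from retina to retina. Spearman's rho between expression and length across genes, given as a description, was -0.41, 0.17 and -0.41 for YR612, YR613 and YR615 (control) and 0.40, 0.39 and -0.15 for YR711, YR713 and YR714 (*Yap* cKO). The median log2 fold change was -0.17 in the 10% of genes with the shortest exonic sequence and 0.21 in the 10% with the longest, and a fold change from offsets corrected for exonic length was computed for each gene as well. Y-linked RNA was present in 2 of the 3 controls and in 1 of the 3 *Yap* cKO retinas, so both groups held both sexes in unequal number.

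YAP regulates transcription through the TEAD factors, whose binding motif contains GGAATG, and the start of each gene was searched for these letters. A 300-base window around the annotated start (250 bases before and 50 after, RefSeq, GRCm38.p6) was given for 7 of the 9 genes, all but *Slc38a3* and *Slc38a1*. The letters GGAATG or their reverse complement CATTCC occurred in 1 of the 7 windows, that of *Slc1a2*, and in 14.7% of the 32851 windows of all genes. The window of *Slc1a2* and that of *Glul*, the most abundant of the 9 transcripts, are shown, 5′ to 3′ on the plus strand, *Glul* up to the base before the start and *Slc1a2* through its first transcribed base, where the match ends, with the matching letters in capitals. The *Slc1a2* sequence covers chr2:102706188-102706438 and lies inside the gene as the count table draws it, downstream of that table's first start at 102658659. The *Glul* sequence covers chr1:153899679-153899928, just before the gene's first base at 153899944. A match is a description of the letters and not evidence of binding.
Slc1a2: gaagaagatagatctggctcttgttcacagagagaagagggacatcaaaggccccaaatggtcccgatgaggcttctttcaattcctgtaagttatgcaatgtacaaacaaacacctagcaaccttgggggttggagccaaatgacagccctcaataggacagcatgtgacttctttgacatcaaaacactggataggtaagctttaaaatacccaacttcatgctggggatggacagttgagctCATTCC
Glul: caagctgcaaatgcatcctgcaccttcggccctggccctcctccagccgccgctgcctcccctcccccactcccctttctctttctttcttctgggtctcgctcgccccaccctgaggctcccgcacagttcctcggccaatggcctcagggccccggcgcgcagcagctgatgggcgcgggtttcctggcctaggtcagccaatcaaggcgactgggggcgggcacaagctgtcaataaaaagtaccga

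On the TPM scale the 9 transcripts spanned a wide range in control retinas, in the order *Glul* (3017 ± 118, mean ± SD, n = 3), *Slc38a3* (367 ± 35.5), *Slc1a7* (127 ± 5.76), *Slc1a3* (121 ± 8.66), *Glud1* (113 ± 4.10), *Slc1a2* (81.9 ± 9.72), *Slc38a1* (62.5 ± 9.28), *Slc1a1* (32.4 ± 2.98) and *Slc1a4* (18.1 ± 1.56). The control range of *Slc1a3* overlapped those of *Slc1a7* and of *Glud1*, so neither step was larger than the spread, although every *Slc1a7* value was above every *Glud1* value. All other neighbours in the order were separated in every control retina. The order of the means was the same in *Yap* cKO retinas, where the ranges of *Slc1a7* and *Slc1a3*, of *Slc1a2* and *Slc38a1*, and of *Slc1a1* and *Slc1a4* overlapped.

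None of the 9 transcripts differed between *Yap* cKO and control retinas at an adjusted p of at most 0.05 (edgeR quasi-likelihood test with Benjamini-Hochberg adjustment over the 16575 genes). Of all genes, 1.49% passed this threshold and 0.796% met every criterion, which adds a change of 1.5-fold or more and an average of 5 TPM or more in 1 group. At an unadjusted p under 0.05 stood 6 of the 9, *Glul* with a lower and *Slc1a2*, *Slc1a7*, *Slc1a4*, *Slc38a3* and *Slc38a1* with a higher mean in *Yap* cKO retinas, against 21.4% of all genes. DESeq2 and edgeR's likelihood ratio test each called 1 of the 9, *Slc38a1*, beside 5.96% and 6.18% of all genes. Limma-voom called 0 of the 9 and 1.64% of all genes, and the quasi-likelihood test with the length correction 0 of the 9 and 2.77%. Every *Yap* cKO retina was above every control in TPM for 4 of the 9 (*Slc1a7*, *Slc1a4*, *Slc38a3* and *Slc38a1*). That was so for 15.2% of all genes, while 9.04% of all genes and 0 of the 9 were below every control. Overlap between retinas is given in TPM throughout, whereas the fold changes come from counts scaled by edgeR's TMM factors. On that scale *Yap* cKO values stand lower relative to controls than in TPM. For *Glud1* the TPM ratio, *Yap* cKO over control, was 0.999 and the log2 fold change -0.06. Overlap on the TMM scale was not counted and can differ. The median log2 fold change of the 9 genes was 0.23, and 0.01 with the length correction, beside 0.0017 over all tested genes.

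**Figure D1:**
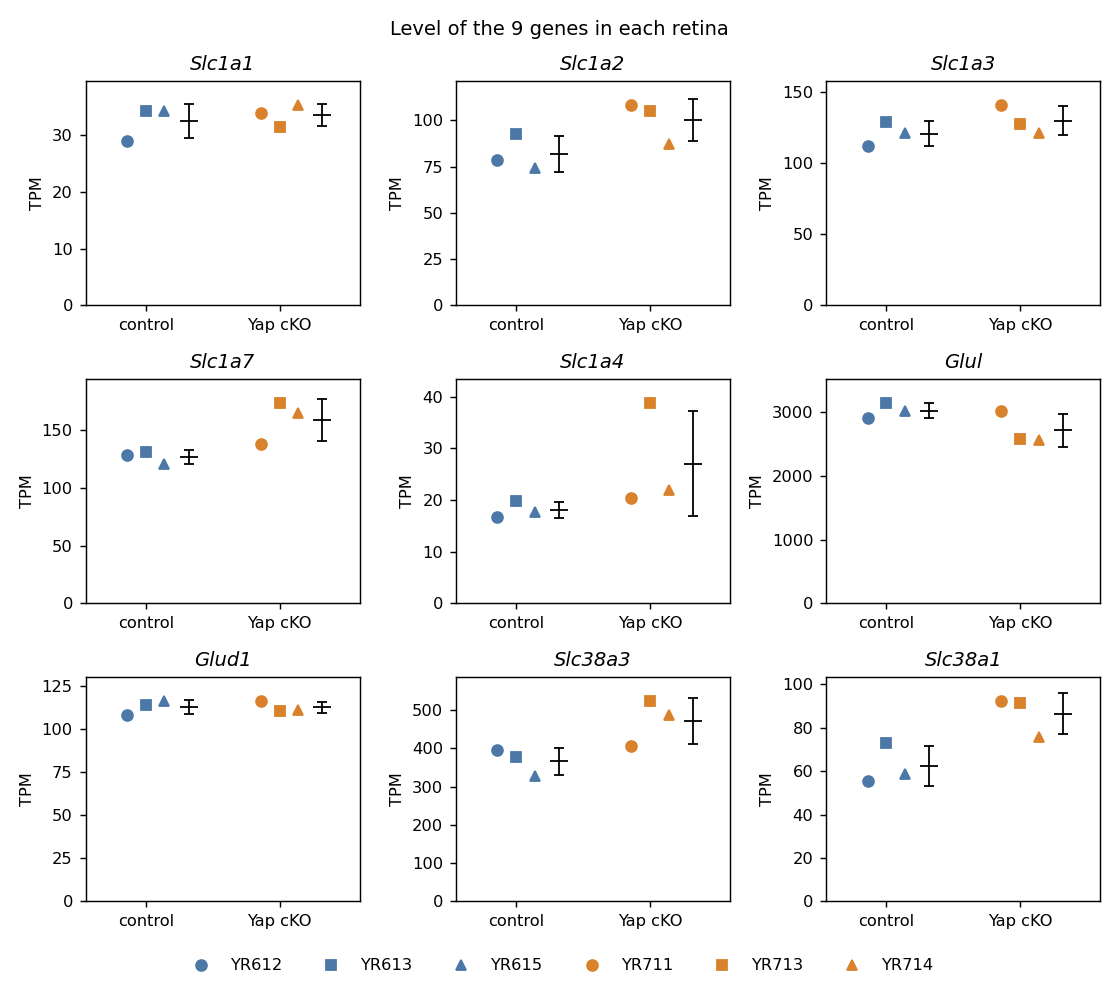
TPM of each of the 9 genes (1 panel per gene, vertical axis from 0) in the 3 control retinas (blue) and the 3 *Yap* cKO retinas (orange), with 1 symbol per animal and the mean ± SD in black. *Slc1a7*, *Slc1a4*, *Slc38a3* and *Slc38a1* show no overlap between the groups in TPM, *Slc1a4* stands highest in YR713, and the *Glul* value of YR711 lies among the controls.

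Glutamine synthetase, encoded by *Glul*, is the enzyme that condenses glutamate with ammonia. The gene lies at chr1:153899944-153909723, plus strand (GRCm38, as are all positions given), with 3782 exonic bases, 93 of which also belong to the microRNA gene *Mir8114* on the same strand. *Glul* stood at 2900, 3135 and 3015 TPM in the controls (in the order YR612, YR613, YR615, kept from here on) and at 3010, 2572 and 2551 TPM in the *Yap* cKO group (in the order YR711, YR713, YR714). YR713 and YR714 were below every control, but YR711 lay within the control range, so the groups overlapped in TPM. Overlap on the scale of the fit was not counted. This gave a log2 fold change of -0.21 ± 0.08 (SE), with a 95% confidence interval from -0.40 to -0.03 and an adjusted p of 0.185, so a level below 0.760 of the control lies outside that interval. With the length correction it was -0.18, with an interval from -0.37 to 0.01. Without *Yap* cKO YR711 it was -0.29 (adjusted p = 0.135).

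*Glud1* (chr14:34310727-34345265, plus strand) encodes glutamate dehydrogenase, which feeds glutamate into the citric acid cycle of the mitochondria. Its values were 108, 114 and 116 TPM in controls and 116, 110 and 111 TPM in *Yap* cKO retinas. The groups overlapped in TPM. The estimate was -0.06 ± 0.07 on the log2 scale (adjusted p = 0.634), with an interval from -0.21 to 0.09, and -0.05 with the length correction. This was the tightest of the 9 estimates.

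Among the excitatory amino acid transporters, *Slc1a3* (GLAST, also EAAT1, chr15:8634124-8710764, minus strand) is the main glutamate carrier of Müller glia. It stood at 112, 129 and 121 TPM in controls and at 141, 128 and 121 TPM in *Yap* cKO retinas. Only YR711 exceeded the controls. The fitted log2 fold change was 0.05 ± 0.08 (adjusted p = 0.745) with an interval from -0.13 to 0.22. A level above 1.16 or below 0.917 of the control was outside that uncorrected interval. With the length correction the log2 value was -0.06, with an interval from -0.20 to 0.08, which reaches to lower levels.

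*Slc1a7* (EAAT5, chr4:107968332-108013532, plus strand) is a transporter of photoreceptors and bipolar cells with a large chloride conductance. It stood at 129, 131 and 120 TPM in controls and at 138, 174 and 165 TPM in *Yap* cKO retinas. All 3 *Yap* cKO values were above the controls in TPM, by little in YR711 and by more in YR713 and YR714. For *Slc1a7* the log2 fold change was 0.27 ± 0.10, with an interval from 0.04 to 0.49 and an adjusted p of 0.176. It did not shrink with the length correction (0.32, interval from 0.13 to 0.51, adjusted p = 0.0730).

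*Slc1a2* (GLT-1, also EAAT2, chr2:102658659-102790784, plus strand) is the dominant transporter of brain astrocytes and in the retina is found mainly in bipolar cells and cones. Its values were 78.4, 92.9 and 74.4 TPM in controls and 108, 105 and 87.4 TPM in *Yap* cKO retinas, and control YR613 lay above *Yap* cKO YR714. Its log2 fold change was 0.23 ± 0.10 (adjusted p = 0.218). *Slc1a2* has 13133 exonic bases, and with the length correction its levels were 92.6, 89.2 and 85.8 TPM against 91.8, 92.6 and 90.2 TPM, a log2 fold change of 0.01 with an interval from -0.13 to 0.16.

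*Slc1a1* (EAAC1, also EAAT3, chr19:28835049-28913960, plus strand) is a neuronal carrier that also brings in cysteine. It stood at 28.9, 34.1 and 34.1 TPM in controls and at 33.7, 31.4 and 35.2 TPM in *Yap* cKO retinas. The groups overlapped, with a log2 fold change of -0.01 ± 0.09 (adjusted p = 0.961), with an interval of the fold change from 0.870 to 1.14. With the length correction the log2 value was -0.11, with an interval from -0.30 to 0.09.

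The 4 transporters summed to 348, 388 and 350 TPM in control retinas and to 421, 438 and 409 TPM in *Yap* cKO retinas, so every *Yap* cKO sum was higher. With the length correction the sums were 376, 380 and 373 TPM against 390, 415 and 416 TPM, still without overlap but closer. On the corrected scale *Slc1a7* was the one of the 4 whose groups did not overlap, and its share of the sum was 34.0%, 34.8% and 31.9% in controls and 36.0%, 42.1% and 39.6% in *Yap* cKO retinas. *Slc1a3* made up 32.9%, 33.0% and 35.2% in controls and 32.6%, 28.5% and 30.0% in *Yap* cKO retinas. These sums and shares are descriptions without a test.

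**Figure D2:**
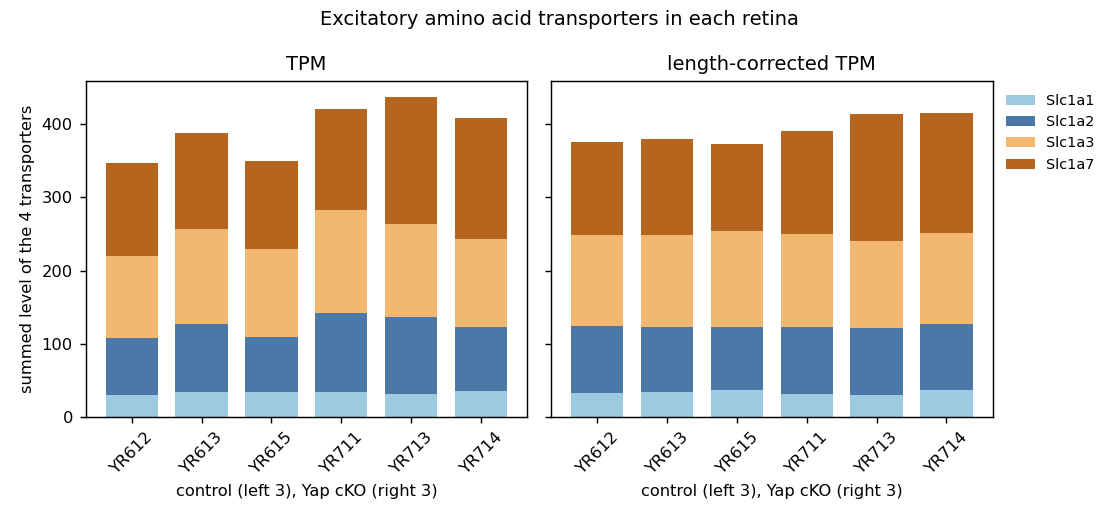
Stacked TPM of *Slc1a1*, *Slc1a2*, *Slc1a3* and *Slc1a7* in each of the 6 retinas, from the counts as deposited (left) and with the correction for exonic length (right), with the axis from 0. On the left the sums run from 348 to 388 TPM in controls and from 409 to 438 TPM in *Yap* cKO retinas, and on the right the *Slc1a7* segment is the one that is taller in YR713 and YR714.

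The 2 glutamine transporters had higher TPM values in *Yap* cKO retinas, without overlap on that scale. *Slc38a3* (SNAT3, system N, chr9:107650634-107669530, minus strand), through which Müller glia exchange glutamine, stood at 395, 378 and 327 TPM in controls and at 406, 524 and 488 TPM in *Yap* cKO retinas. YR711 lay just above the highest control and the others well above it. The log2 fold change was 0.31 ± 0.12 (adjusted p = 0.182) with an interval from 0.05 to 0.57, and 0.28 with the length correction, where YR711 (389 TPM) lay below control YR612 (413 TPM).

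*Slc38a1* (SNAT1, system A, chr15:96571418-96642913, minus strand), a carrier with which neurons take up glutamine, stood at 55.6, 73.0 and 58.8 TPM in controls and at 92.3, 91.4 and 75.5 TPM in *Yap* cKO retinas. It had the smallest adjusted p of the 9 genes (log2 fold change 0.41 ± 0.10, unadjusted p = 0.00318, adjusted p = 0.0884) and the longest exonic sequence, 17236 bases. With the length correction its values drew together, to 68.5, 69.7 and 70.6 TPM in controls and 75.2, 77.8 and 77.7 TPM in *Yap* cKO retinas. The groups still did not overlap, but the log2 fold change was 0.12 (interval from -0.01 to 0.25, adjusted p = 0.267).

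*Slc1a4* (ASCT1, chr11:20302180-20332713, minus strand) exchanges alanine, serine and cysteine, and in the brain is known for carrying serine. It stood at 16.7, 19.8 and 17.7 TPM in controls and at 20.4, 38.8 and 22.0 TPM in *Yap* cKO retinas. YR713 was far above all others, and YR711 and YR714 only just above the highest control. Its log2 fold change, 0.53 ± 0.21 (adjusted p = 0.200), had the widest interval of the 9, from 0.05 to 1.01, and was 0.18 without YR713. With the length correction and all retinas it was 0.56.

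**Figure D3:**
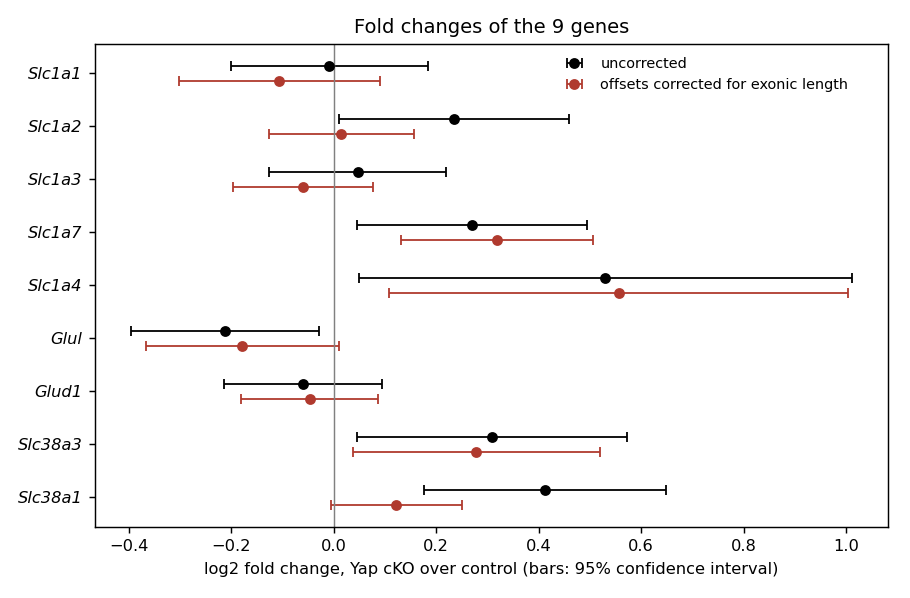
Log2 fold change of each gene, *Yap* cKO over control, with its 95% confidence interval, from counts as deposited (black) and with offsets corrected for exonic length (red). *Slc38a1* moves from 0.41 to 0.12 and *Slc1a2* from 0.23 to 0.01, whereas *Slc1a7*, *Slc1a4* and *Slc38a3* stay near 0.3 or above on both scales.

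The retinas were also set side by side within the sets that shared the sign of the length relation, YR613 against YR711 and YR713 where relative expression rose with length, and YR612 and YR615 against YR714 where it fell. In the rising and the falling set the log2 ratio of mean TPM, *Yap* cKO over control, was 0.33 and 0.40 for *Slc38a1*, 0.20 and 0.19 for *Slc1a2*, 0.25 and 0.41 for *Slc1a7*, 0.30 and 0.44 for *Slc38a3* and -0.17 and -0.21 for *Glul*. It was 0.58 and 0.35 for *Slc1a4*, 0.06 and 0.05 for *Slc1a3* and -0.008 and -0.013 for *Glud1*. For *Slc1a1* the sign differed between the sets, with -0.07 and 0.16. The split did not equalise the length relation, since rho was higher in *Yap* cKO than in control retinas within both sets (0.40 and 0.39 against 0.17, and -0.15 against -0.41 in both controls). It was made after the data were seen, no test was run in it, and the ratios are a description.

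**Figure D4:**
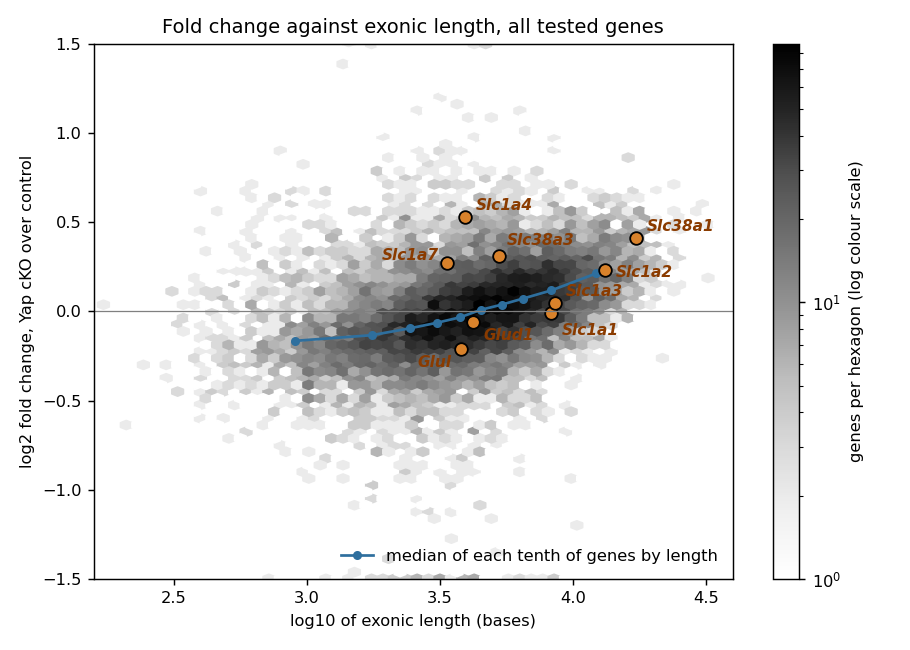
Log2 fold change against the log10 of exonic length for the 16575 tested genes (grey hexagons on a log colour scale, values beyond the axis drawn at its edge), the median of each 10% of genes by length (blue) and the 9 genes (orange). The blue line climbs from -0.17 to 0.21. At its long-gene end *Slc1a2* (0.23) lies near it and *Slc38a1* (0.41) above it, and *Slc1a7*, *Slc1a4* and *Slc38a3* also lie above it.

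*Glul* and *Slc1a3* were then set against other transcripts of Müller glia in the same retina, as the log2 TPM of the gene minus the mean log2(TPM + 0.1) of 9 markers (*Rlbp1*, *Sox9*, *Sox2*, *Dkk3*, *Vim*, *Car14*, *Hes1*, *Abca8a* and *Apoe*). For *Glul* this difference was 4.07, 4.23 and 4.09 in controls and 4.32, 4.06 and 3.93 in *Yap* cKO retinas. The groups overlapped and their means differed by -0.03 (two-sided exact permutation test over the 6 retinas, p = 0.8). For *Slc1a3* it was -0.62, -0.37 and -0.55 in controls and -0.10, -0.27 and -0.46 in *Yap* cKO retinas, a difference of 0.23 (same exact permutation test, p = 0.2). The smallest p this design allows is 0.1. Of the 9 markers, 0 reached an adjusted p of at most 0.05 and 1 did with the length correction, *Rlbp1*, the retinaldehyde-binding protein (-0.36, adjusted p = 0.0540, and -0.29, adjusted p = 0.0453, corrected), which was below every control in all *Yap* cKO retinas. The markers' log2 fold changes ran from -0.46 to 0.02 with a median of -0.18, and their summed level was 3935 to 4233 TPM in controls and 3546 to 3823 TPM in *Yap* cKO retinas. The fold changes of 7 of the 9 markers were below 0, as was that of *Glul*, and their part in the *Glul* value was not tested.

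Within a retina, *Glul* RNA exceeded *Slc1a3* RNA by a factor of 25.9, 24.3 and 24.9 in controls and 21.4, 20.2 and 21.1 in *Yap* cKO retinas, on the TPM scale. The factors did not overlap, but with the length correction they were 23.6, 25.01 and 22.9 against 23.6, 21.7 and 20.5 and overlapped. *Glul* over the sum of the 4 transporters was 8.34, 8.09 and 8.61 in controls and 7.14, 5.88 and 6.24 in *Yap* cKO retinas, and 7.76, 8.27 and 8.07 against 7.71, 6.18 and 6.15 with the correction. Both are descriptions of genes already given.

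Markers of other cells that a retina can hold were counted beside these values, and *Arr3*, *Grm6*, *Otx1* and *Rlbp1* are named after their values were seen. Photoreceptor and ganglion cell markers, from the cells that release glutamate, passed the adjusted p threshold in 0 of 6 (rods), 0 of 5 (cones) and 0 of 5 (ganglion cells) cases. With the length correction 1 cone marker passed (*Arr3*, the cone arrestin, log2 fold change 0.35, adjusted p = 0.0189, against 0.25 and 0.102 without it). Without the correction the fold changes of the 5 cone markers ran from -0.07 to 0.25 on the log2 scale, 4 above 0 and 1 below. The summed level of the cone markers was 1748 to 1867 TPM in controls and 1821 to 2077 TPM in *Yap* cKO retinas, which overlapped. Of 5 bipolar cell markers 1 passed the threshold and was higher (*Grm6*, the glutamate receptor of ON bipolar cells, log2 fold change 0.46, adjusted p = 0.0249), and their summed level was 440 to 517 TPM in controls and 467 to 614 TPM in *Yap* cKO retinas. The fold changes of the 5 ran from -0.25 to 0.64 on the log2 scale, 4 above 0 and 1 below. In TPM every *Yap* cKO retina was above every control for 3 of the 5, beside 15.2% of all genes. Of 4 astrocyte markers 1 met every criterion (*Aldh1l1*, a folate enzyme, -0.79), with summed levels of 92.2 to 116 TPM against 76.1 to 111 TPM. The fold changes of the 4 ran from -0.79 to 0.17 on the log2 scale, 2 above 0 and 2 below, so the list as a whole had no common direction. Of 5 ciliary body markers 1 met every criterion (*Optc*, -3.41), with summed levels of 102 to 113 TPM against 46.1 to 65.8 TPM, and with the length correction *Otx1* also passed the adjusted p threshold (-1.84, adjusted p = 0.0400). *Otx1* was near the floor, between 0.13 and 1.15 TPM over all retinas, and so below the 5 TPM of the criteria. Of 5 markers of melanin-bearing cells 1 met every criterion (*Pmel*, -1.89), with 70.6 to 77.9 TPM against 16.7 to 47.7 TPM. The summed ciliary body and melanin markers were below the control range in all *Yap* cKO retinas, and how much tissue of the anterior eye came with each retina was not tested as a part of the values of the 9 genes. Of the remaining lists (amacrine cells, horizontal cells, microglia, endothelium, pigment epithelium and lens) 0 markers reached an adjusted p of at most 0.05 with or without the length correction, and of the 4 lens markers 1 had enough reads to be tested and *Lim2* was at 0 in every retina. The summed level of the pigment epithelium markers was 530 to 576 TPM in controls and 167 to 558 TPM in *Yap* cKO retinas.

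Beyond the 9 genes, 33 other genes of glutamate and glutamine handling were examined. Of these 33, 0 passed an adjusted p of at most 0.05 with edgeR's quasi-likelihood test, and 5 had an unadjusted p under 0.05, of which 4 were higher and 1 was lower in *Yap* cKO retinas. These 5 are a smaller share than the 21.4% of all genes. DESeq2 and edgeR's likelihood ratio test each called 1 of them, *Slc7a8*, a carrier of neutral amino acids that was named after its values were seen (log2 fold change 0.36, adjusted p = 0.0431 and 0.0397), which is a smaller share than the 5.96% and 6.18% of all genes. Every *Yap* cKO retina was above every control in TPM for 11 of the 33 and below for 0, beside 15.2% and 9.04% of all genes. Their median log2 fold change was 0.09, and 0.06 with the length correction.

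Glutamate uptake moves ions and water, and 3 genes that handle them were followed. *Atp1b2*, a beta subunit of the sodium pump that is abundant in glia and photoreceptors, had a log2 fold change of 0.13 ± 0.08 (adjusted p = 0.375). *Kcnj10*, the Kir4.1 potassium channel of Müller glia, stood at 69.0, 80.8 and 66.3 TPM against 97.9, 89.6 and 85.9 TPM (0.28 ± 0.09, adjusted p = 0.126, and 0.25 with the length correction). *Aqp4*, the water channel of Müller endfeet, which was named after its values were seen, stood at 71.5, 95.5 and 82.2 TPM against 83.0, 65.3 and 55.2 TPM (-0.35 ± 0.14, adjusted p = 0.191, and -0.40 with the length correction). *Kcnj10* was thus above all controls in every *Yap* cKO retina, while *Aqp4* was below all controls in YR713 and YR714 only.

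On the neuronal side, *Slc17a7*, the vesicular glutamate transporter VGLUT1 of photoreceptors and bipolar cells, had a log2 fold change of 0.09 ± 0.09 (adjusted p = 0.557). *Slc17a6*, the transporter VGLUT2 of ganglion cells, stood at 71.0, 84.0 and 84.5 TPM in controls and at 95.3, 96.1 and 87.0 TPM in *Yap* cKO retinas (0.16 ± 0.08, adjusted p = 0.274). Its groups did not overlap. All 4 genes of this group (*Gls2*, *Slc17a6*, *Slc17a7* and *Slc17a8*) had fold changes above 0, and 0 passed the test. Among the transaminases and related enzymes, *Got1* and *Got2*, which exchange amino groups between aspartate and glutamate in cytosol and mitochondria, had -0.07 ± 0.07 and 0.05 ± 0.07, and 0 of 9 passed.

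Of the 10 other amino acid carriers of the plasma membrane 0 passed. The most abundant were *Slc3a2*, the heavy chain shared by several exchangers (-0.18 ± 0.09, adjusted p = 0.302), and *Slc7a5*, its partner LAT1 (0.09 ± 0.12, adjusted p = 0.692). The mitochondrial carriers *Slc25a22* (glutamate) and *Slc25a12* (aspartate and glutamate) had 0.13 ± 0.08 and 0.09 ± 0.08, and 0 of 4 passed. In glutathione synthesis, which uses glutamate, *Gclc* and *Gclm*, the catalytic and modifier subunits of the limiting ligase, had 0.23 ± 0.08 (adjusted p = 0.153) and 0.14 ± 0.10 (adjusted p = 0.435), and 0 of 3 passed.

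**Figure D5:**
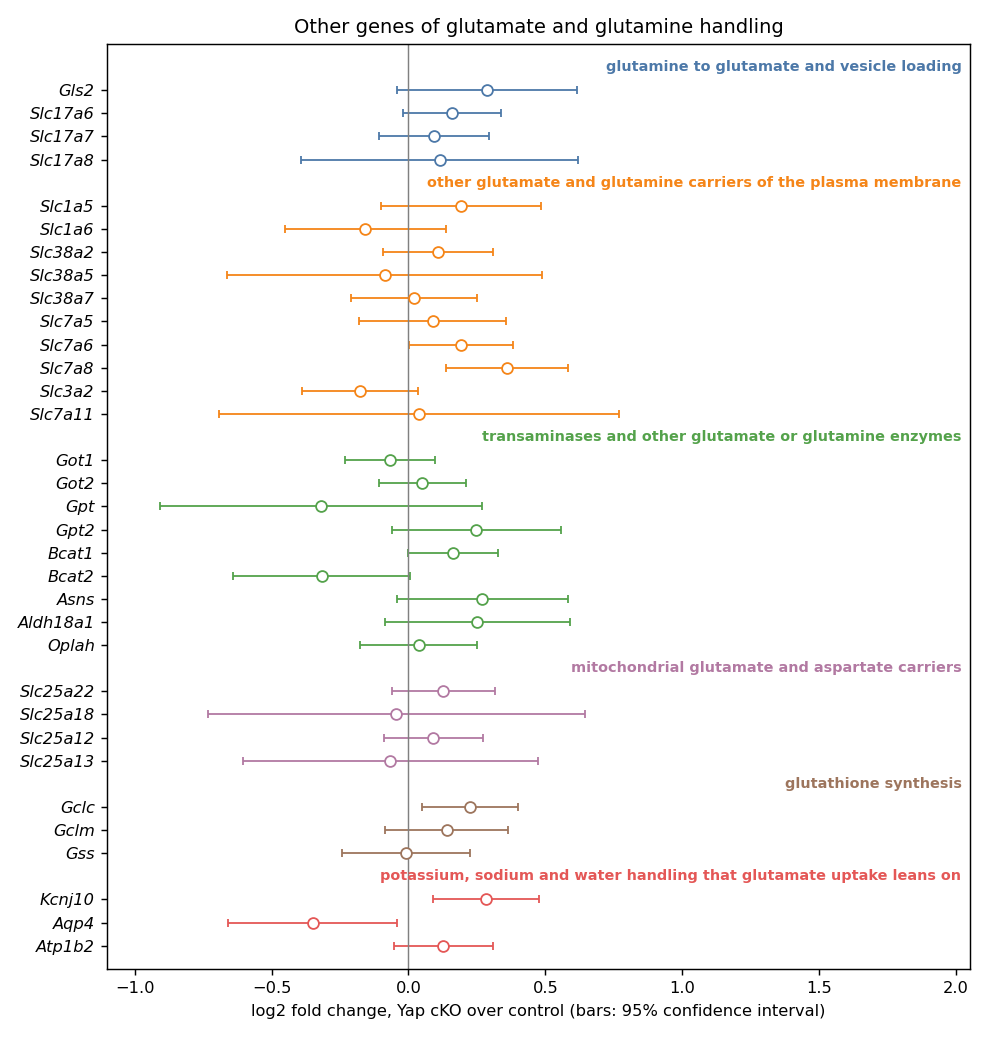
Log2 fold change, *Yap* cKO over control, with its 95% confidence interval for the 33 other genes, grouped by role. Every point is open, since 0 of the 33 had an adjusted p of at most 0.05, and the values lie between -0.35 (*Aqp4*) and 0.36 (*Slc7a8*).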

How the data were processed

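Stranded libraries were made from whole-retina RNA with a TruSeq mRNA kit. The authors aligned the reads to GRCm38 with STAR 2.7.3a and deposited counts per gene from featureCounts 1.6.2 (strand setting 2, annotation release 98 in the table header), without normalization, together with exonic lengths. The 9 genes had the same coordinates in GENCODE M21.

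TPM was computed from counts and lengths. Tests used R 4.3.3, edgeR 4.0.16 (filterByExpr, TMM, quasi-likelihood test, Benjamini-Hochberg adjustment), limma 3.58.1 and DESeq2 1.42.0. The paper's criteria were applied (adjusted p of at most 0.05, fold change of at least 1.5, mean of at least 5 TPM in 1 group). Its methods name edgeR but not which of edgeR's tests was run. Here 132 genes met every criterion with the quasi-likelihood test and 291 with the likelihood ratio test. Neither is the number that the paper reports, so the shares given here are not the paper's own. The length correction fitted a loess curve (span 0.3) of relative expression against length in each retina and used it as offset. All 9 genes were named; of the 33 other genes, those called and the 2 most abundant of each role were. Some genes of the list as first drawn are not reported here, so its counts cover the rest. Members and lists were chosen with earlier results of these data known. The code was tested on simulated data. Multi-mapped reads were not counted per the table header.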

Additional observations from a re-analysis of the deposited data

How the results depend on the processing

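The count of the 9 genes meeting every criterion stayed at 0 under every alternative that was run. The number with an adjusted p of at most 0.05, 0 in the comparison reported, was 1 with DESeq2, with edgeR's likelihood ratio test (*Slc38a1* in both) and with the likelihood ratio test plus length correction (*Slc1a7*, adjusted p = 0.0261), 3 without a filter on low counts (*Slc1a4*, *Slc38a1*, *Slc38a3*), and 0 to 1 when a retina was left out. *Slc38a1* was then called without control YR613 (0.52, adjusted p = 0.0165) or *Yap* cKO YR714 (0.48, adjusted p = 0.0311). Of the 33 other genes, 0 in the comparison reported, 1 had such a p with DESeq2 and with the likelihood ratio test (*Slc7a8*), 2 without the filter and with the likelihood ratio test plus length correction (*Slc7a8* and *Aqp4*), and 0 to 1 with a retina left out (*Kcnj10* without control YR613, *Slc7a8* without *Yap* cKO YR714). With the length relation as a covariate 1 had such a p and 1 met every criterion, *Aqp4* in both (-0.59, adjusted p = 0.0326). The sign of *Slc1a1* turned with that covariate (0.025) and without control YR613 (0.0096), control YR615 (0.027) or *Yap* cKO YR713 (0.040), within a range of -0.067 to 0.040 over the left-out retinas. That of *Slc1a3* turned with the length correction (-0.060 with either edgeR test), with the covariate (-0.027) and without *Yap* cKO YR711 (-0.012), within a range of -0.012 to 0.077. Both stayed within 1 SE of 0 in the comparison reported. Over all genes, calls on the adjusted p numbered 247 of 16575 tested, with 892 of 14966 by DESeq2 and 1865 of 30129 without the filter. Of 16575, they numbered 1025 by the likelihood ratio test, 459 with the length correction and 1029 by the likelihood ratio test with length correction. They were 184 with the length covariate and 151 with the sex covariate, also of 16575. With a retina left out, 16830 to 16913 genes were tested and 49 to 1490 called. The fit without control YR613 called 1490 of 16858, and that without *Yap* cKO YR714 992 of 16841. Calls on every criterion numbered 132, with 263, 291, 369 and 245 by DESeq2, the likelihood ratio test, without the filter and with that test plus length correction, and 38 to 516 with a retina left out. The cause of these changes was not tested. The sex covariate and the likelihood ratio test with length correction were chosen after seeing the data. No paired analysis was possible because the labels give the animals of the groups different codes.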

Other observations

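*Slc1a4* was highest in *Yap* cKO YR713, and so were other genes of amino acid supply, which were chosen after the *Slc1a4* values were seen. *Chac1*, which degrades glutathione, stood at 21.6 TPM in YR713 and at 3.65 to 5.09 TPM in the other 5 retinas. *Mthfd2*, a mitochondrial folate enzyme, stood at 19.2 TPM against 7.09 to 10.7 TPM, and *Slc7a1*, a carrier of cationic amino acids, at 14.3 TPM against 7.11 to 9.23 TPM. *Asns*, which makes asparagine from glutamine, stood at 102 TPM against 60.9 to 73.1 TPM, *Slc7a5* at 88.3 TPM against 63.4 to 68.6 TPM, and *Aldh18a1*, the first enzyme of proline synthesis from glutamate, at 41.4 TPM against 25.4 to 35.1 TPM. These are values of 1 retina and not of the group. YR713 held the highest value of the 6 retinas for 3 of the 9 genes, for 16 of the 33 other genes of glutamate and glutamine handling (48.5%) and for 18.2% of all tested genes. *Slc1a4* is among the 3, and *Asns*, *Slc7a5* and *Aldh18a1* are among the 16, so these counts are not separate from the values above. YR713 also had the largest total count, 35067068, and its part in these values was not tested.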
